A study of Homo sapiens with 18 samples.

Results

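The genes described here are 41 genes of ribosome biogenesis and of the nucleolus, taken as a named list and found in both count tables by mapping Ensembl identifiers to symbols, 41 of 58825 genes in all. OVCAR-3, an established cell line of high-grade serous ovarian carcinoma, was grown in 12-well plates and treated in stripped medium with DMSO as the vehicle, with 1 µM i-BET858 or with 1 µM i-BET151. These compounds inhibit the BET proteins, which bind acetylated histones through bromodomains and help to start and sustain transcription. RNA was taken after 4 or 24 h, and each of the 6 groups had 3 libraries. No genetic change separated the groups, and all of them came from 1 cell line, so the p-values measure the spread between its cultures or libraries and not between tumours. DMSO libraries served as the control of both compounds at each time, so the 2 effects at a time are not independent of each other.

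Ribosomes are assembled in the nucleolus. RNA polymerase I transcribes ribosomal DNA into a long precursor, small nucleolar RNA-protein particles (snoRNPs) modify and help to cut it, and the small subunit processome and the large subunit assembly factors fold and trim it into the 2 subunits before export. The output of this pathway follows growth, and many of its genes carry E-boxes, the DNA motif to which the transcription factor MYC binds with its partner MAX. The list was therefore read by role: 3 proteins of the box C/D snoRNPs, which guide ribose methylation, 4 of the box H/ACA snoRNPs, which guide pseudouridylation, 6 of RNA polymerase I and its factors, 11 of the small subunit, 12 of the large subunit, and 5 abundant or multifunctional nucleolar proteins.

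The promoters bear on this list because the E-box is a feature that many of its genes are known for. RefSeq windows on GRCh38.p14, from 250 bases before to 50 bases after a transcription start, were at hand for 34 of the 41 genes, and not for NOP58, TCOF1, RRP12, BOP1, RRP1B, RRS1 and NOLC1. The palindrome CACGTG lay in a window of 16 of the 34 genes (47.1%), against 2396 of all 27305 genes with a window (8.77%). These 27305 genes were not limited to those expressed in OVCAR-3, and the difference was not tested. In all 16 genes the palindrome lay within 40 bases of a start. The 9 genes that hold it and fell in i-BET858 at 4 h are shown first, each as 30 bases read 5′ to 3′ on the strand of the gene with the E-box in capitals.
GAR1: gggccagaggggCACGTGgcgccggtgagt
LTV1: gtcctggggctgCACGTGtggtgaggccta
WDR43: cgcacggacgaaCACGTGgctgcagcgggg
UTP20: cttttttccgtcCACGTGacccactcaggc
MRTO4: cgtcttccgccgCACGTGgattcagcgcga
DDX21: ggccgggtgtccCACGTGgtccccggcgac
PES1: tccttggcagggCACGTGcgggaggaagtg
BYSL: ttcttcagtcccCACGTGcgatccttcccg
NOP14: tccgcggcccggCACGTGtcttagggtagc

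The next 2 are shown for contrast, because FBL rose at 4 h and RRP9 passed at neither time unless the replicate number was kept as a block, although both hold the motif as close to the start.
FBL: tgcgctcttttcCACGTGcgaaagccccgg
RRP9: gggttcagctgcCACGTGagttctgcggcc

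The GAR1 window is chr4:109815781-109815810 on the plus strand, with the E-box beginning at base 32 of the transcript. For WDR43 it is chr2:28894658-28894687 (plus strand, base 4 of the transcript), and for FBL chr19:39846356-39846385 (minus strand, base 7). In UTP20, chr12:101280083-101280112 on the plus strand, the E-box begins 10 bases before the start. Of 18 genes with a window that fell in i-BET858 at 4 h, 9 held it, as did 1 of 4 that rose and 6 of 12 that were not called in that comparison. The median log2 fold change in i-BET858 at 4 h was −0.48 over the 16 genes with an E-box and −0.45 over the 18 without. At 24 h these medians were −0.46 and −0.33. In i-BET151 they were −0.21 and −0.32 at 4 h, and −0.44 and −0.40 at 24 h. Other motifs, read on both strands, were the ETS core CCGGAAG in 15 of the 34 genes (44.1%, against 12.2% of all genes), the GC box GGGCGG in 25 (73.5% against 48.3%), CCAAT in 17 (50% against 39.7%) and TATAAA in 2 (5.88% against 14%). A match describes the letters of a window and not a bound site.

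The 18 libraries held 27323969 to 46299994 counts each. Replicate 3 of every group stood apart, with 17817 to 20642 genes that had a count, against 23674 to 24947 in replicates 1 and 2. All 41 genes passed the filter on low counts. The line expressed its defining markers in every library (PAX8, WT1, MUC16, EPCAM, KRT7, KRT8 and KRT18, with a summed level of 7912 to 9475 CPM in DMSO, 10619 to 11276 in i-BET858 and 8986 to 9515 in i-BET151 at 4 h, and of 8687 to 10041, 6100 to 6672 and 6361 to 6949 CPM at 24 h), whereas PTPRC, CD3E, PECAM1, COL3A1 and ALB stayed under 1 CPM, and COL1A1 lay between 21.2 and 45.9 CPM. These sums moved with the treatments, and their part in the results was not tested. CPM are counts relative to the depth of a library, scaled here with TMM factors.

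Per kilobase of exon, the genes covered a wide range in DMSO at 4 h. FBL, the fibrillarin methyltransferase of box C/D particles, stood highest at 661 ± 43.8 CPM per kb (SD, n = 3). The nucleolar histone chaperones NCL (nucleolin) at 142 ± 12.1 and NPM1 (nucleophosmin) at 115 ± 9.44 CPM per kb followed, then NOC2L at 86.7 ± 4.66. Most assembly factors lay between 5 and 60 CPM per kb, and neighbours in that order, such as RRS1 (39.2 ± 3.47) and NOP58 (39.1 ± 2.04), differed by less than their SD. Lowest were PPAN at 1.82 ± 0.311, DDX10 at 1.48 ± 0.198 and NOP2 at 0.0424 ± 0.0345 CPM per kb. Exon length here joins all annotated exons of a gene over all its transcripts (18059 bases in DDX10), so this order depends on the annotation. By CPM, DDX10 (26.7) lay above POLR1C (22.1) and LTV1 (17.2), and NPM1 (955) lay nearer to FBL (1414). NOP2 had 0 to 54 counts per library. In GENCODE 44 it shares 2550 of its 4687 exon bases with the protein-coding gene ENSG00000285238 on the same strand, and a counter that drops reads on 2 genes would remove such reads. It is counted among the 41 in every tally, median and range, and its own fold changes are not described. PPAN shares 1422 of 2888 exon bases with P2RY11 and the read-through gene PPAN-P2RY11, LTV1 shares 643 of 1853 with other genes, and RRS1 shares 194 of 1720, so their levels may be undercounted. Smaller parts of NOP56 (472 of 4950), WDR74 (428 of 4247), DKC1 (322 of 9198), NCL (217 of 8919), GNL3 (159 of 3238), BOP1 (65 of 3841) and NOP58 (62 of 3274) overlap other genes on the same strand, which apart from WDR74 are small RNA genes. POLR1C, NIP7, NOP14, NOP16, RRP12, WDR74, NHP2, WDR12, NOC2L, UBTF, NOP58, UTP15, POLR1B, PES1 and GNL3 share exon bases with genes on the opposite strand (from 12 bases in GNL3 to 1009 in POLR1C), whose reads cannot be told apart from theirs if strand was not used in the counting. NPM1 has 49 and RRN3 has 5 named pseudogenes, among which near-identical reads can be split.

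More of the ribosome biogenesis genes fell than rose in both treatments, and those that fell numbered 20 in i-BET858 and 12 in i-BET151 at 4 h, and 20 and 19 at 24 h. With i-BET858 at 4 h, 24 of the 41 passed an adjusted p of 0.05 in edgeR's quasi-likelihood test, against 30.8% of all 17192 genes tested. Of these, 20 were lower (48.8%, against 16.3% of all genes) and 4 were higher (9.76% against 14.5%), and the median log2 fold change was −0.39, against 0.02 over all genes. In i-BET151 at 4 h, 12 were lower (29.3% against 8.43%) and 1 was higher (2.44% against 7.81%), 13 in all, against 16.2% of all genes called, with a median of −0.21. At 24 h, 20 were lower in i-BET858 (48.8% against 21.3%) and 1 was higher (2.44% against 20.5%), 21 in all, against 41.7% of all 17157 genes. In i-BET151 at 24 h, 19 were lower (46.3% against 16.6%) and 1 was higher (2.44% against 17.2%), 20 in all, against 33.8% of all genes. The medians at 24 h were −0.43 and −0.42. Falls of 2-fold or more were seen in 7 genes in i-BET858 at 4 h (17.1%, against 7% of all genes) and in 4 at 24 h (9.76% against 11.2%), so that at 24 h the share was no larger than over all genes. In i-BET151 they were seen in 1 gene at each time, RRS1 at 4 h (against 2.97% of all genes) and NOP16 at 24 h (against 8.09%).

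**Figure D1:**
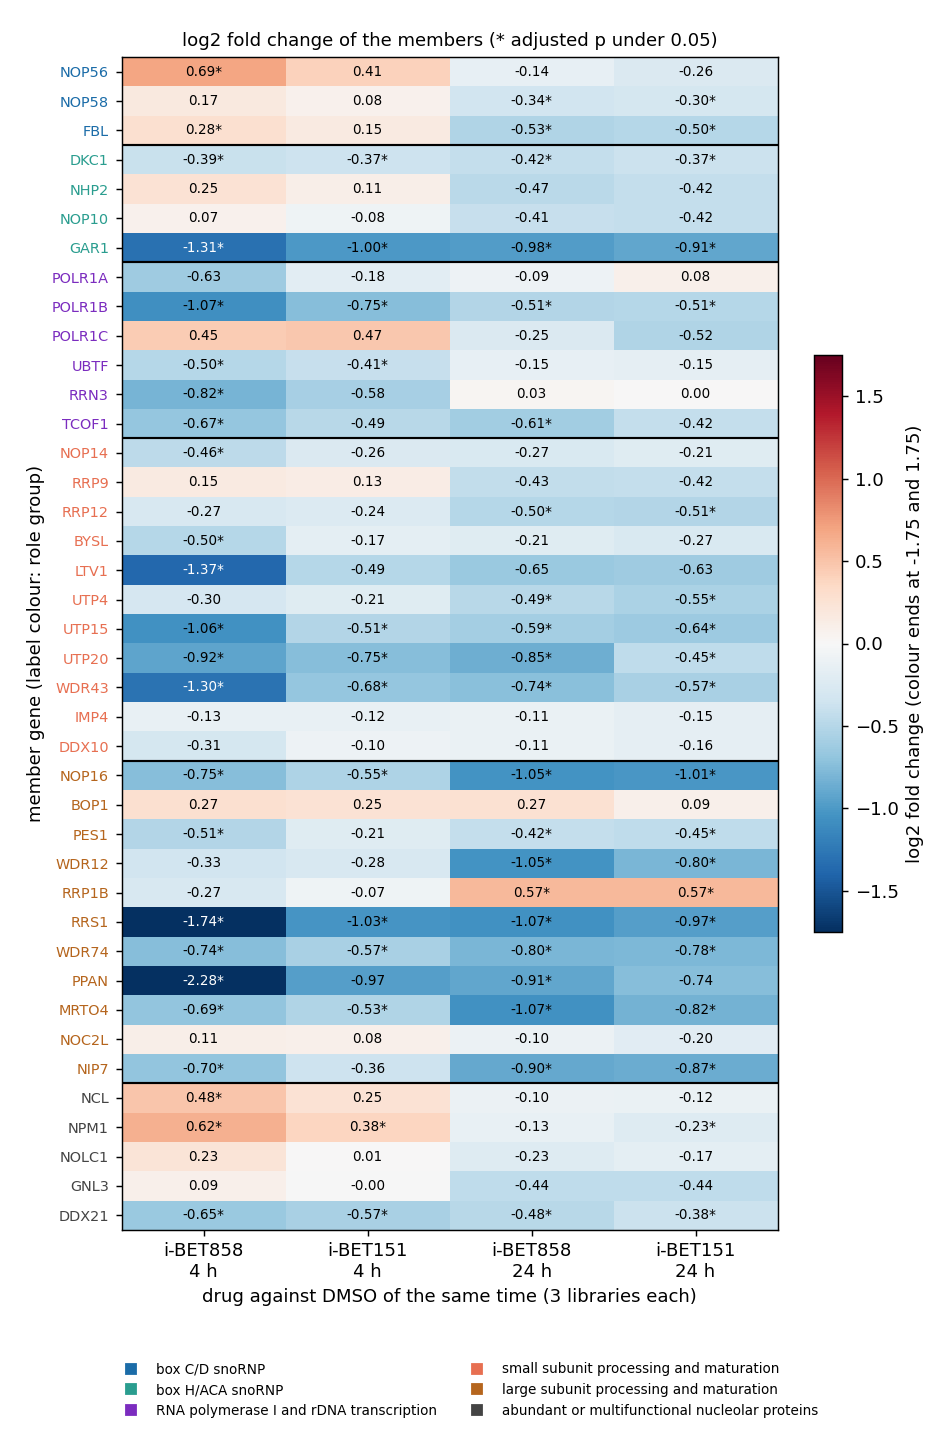
Log2 fold change of 40 of the 41 genes (rows, ordered and coloured by role) in each drug against DMSO of the same time (columns, 3 libraries per group), with an asterisk at an adjusted p under 0.05. NOP2 is left out for its low counts. Most cells are blue (lower than DMSO), with the darkest at RRS1 and PPAN at 4 h, and the red cells with an asterisk at 4 h are NOP56, FBL, NCL and NPM1 in i-BET858 and NPM1 in i-BET151.

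Not all of these calls rest on every library. With each of the 9 libraries of a time left out in turn, 21 of the 24 calls in i-BET858 at 4 h held in every case, and 17 of 21 at 24 h. For i-BET151 it was 3 of 13 at 4 h (GAR1, RRS1 and WDR43) and 14 of 20 at 24 h. The count for i-BET151 at 4 h was 4 without i-BET151 replicate 1 or 2, 6 without DMSO replicate 3 and 8 without DMSO replicate 1 or 2. Counts from fits without 1 library are given here and below with no share over all genes, and are not read against it. The count for i-BET151 at 4 h was 23 (5 higher and 18 lower, against 32.7% of all genes called) when the replicate number was kept as a block. In i-BET858 the block gave 34 calls at 4 h (8 higher and 26 lower, against 45.4%) and 27 at 24 h (2 higher and 25 lower, against 52%). It gave 30 calls for i-BET151 at 24 h (1 higher and 29 lower, against 45.9%). Scaling by total library size in place of TMM shifted the median of all genes in i-BET858 at 4 h from 0.02 to −0.14 on the log2 scale and gave 2 genes higher and 24 lower. In i-BET151 at 4 h it gave none higher and 15 lower. Among all genes called in i-BET858 at 4 h, the share that was higher moved from 47.1% to 32.0% with that scaling. In i-BET151 at 4 h that share moved from 48.1% to 39.5%. The share of all genes called lower under that scaling is not given, so the counts of 24 and 15 are not read against it.

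Of the 3 box C/D proteins, NOP56 and FBL rose in i-BET858 at 4 h, and the third, NOP58, had a log2 fold change of 0.17 without passing. NOP56, a scaffold protein of these particles (chromosome 20, 2652593 to 2658393, plus strand), measured 164, 169 and 147 CPM in DMSO and 288, 274 and 213 CPM in i-BET858 at 4 h. Every treated library lay above every DMSO library. The rise was 0.69 ± 0.16 on the log2 scale (SE, adjusted p = 0.00661), 1.62-fold. In i-BET151 the libraries read 224, 246 and 167 CPM, higher in 8 of 9 pairs, and the log2 fold change of 0.41 did not pass the test (adjusted p = 0.111, and 0.00247 with the replicate block). At 24 h, NOP56 read 158, 173 and 138 CPM in DMSO, 137, 159 and 129 CPM in i-BET858 and 146, 128 and 118 CPM in i-BET151, which overlap (log2 fold changes of −0.14 and −0.26, the latter with an adjusted p of 0.0318 under the replicate block).

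FBL measured 1487, 1308 and 1446 CPM in DMSO at 4 h and 1735, 1550 and 1855 CPM in i-BET858. It was higher in all 9 pairs, by 0.28 ± 0.10 on the log2 scale (adjusted p = 0.0497). This call is at the limit. It was lost in 7 of the 9 fits without 1 library (log2 fold changes of 0.21 to 0.34, of which 2 kept the call), under total library size (0.12), in DESeq2 and without the filter on low counts. The direction was the opposite at 24 h. DMSO libraries read 1442, 1507 and 1791 CPM, those in i-BET858 983, 1138 and 1159 CPM, and those in i-BET151 1137, 1034 and 1176 CPM. No treated library reached the lowest DMSO library, and FBL fell by 0.53 ± 0.11 in i-BET858 (adjusted p = 0.00255) and by 0.50 ± 0.11 in i-BET151 (adjusted p = 0.00468). NOP58, the other scaffold protein, passed at 24 h alone, at −0.34 in i-BET858 (adjusted p = 0.0248) and −0.30 in i-BET151 (adjusted p = 0.0485).

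Of the box H/ACA proteins, DKC1 and GAR1 were lower in both treatments at both times, and NHP2 and NOP10 passed in none of the 4 comparisons with DMSO. GAR1, which binds the catalytic subunit and helps product release, measured 62.3, 64.6 and 50.2 CPM in DMSO at 4 h. With i-BET858 it read 29.1, 18.8 and 23.7 CPM, and in i-BET151 29.8, 32.8 and 26.0 CPM. The lowest DMSO library was well above every treated library. GAR1 fell by 1.31 ± 0.18 on the log2 scale in i-BET858 (adjusted p = 0.000245), to a level 2.47-fold lower, and by 1.00 ± 0.18 in i-BET151 (adjusted p = 0.00306). At 24 h the falls were 0.98 ± 0.17 (adjusted p = 0.000917) and 0.91 ± 0.17 (adjusted p = 0.00208). DKC1, dyskerin, the pseudouridine synthase itself, moved less but tightly. It read 180, 169 and 173 CPM in DMSO at 4 h, 140, 127 and 132 CPM in i-BET858 and 143, 137 and 126 CPM in i-BET151. The 3 sets did not overlap between drug and vehicle, and DKC1 fell by 0.39 ± 0.10 (adjusted p = 0.0132) and by 0.37 ± 0.10 (adjusted p = 0.0301, a call kept in 3 of 9 fits without 1 library). Its log2 fold changes at 24 h were −0.42 and −0.37. With the replicate block, NHP2 was higher in i-BET858 at 4 h (adjusted p = 0.0298) and lower in both drugs at 24 h (0.000853 and 0.00224), and NOP10 was lower in both at 24 h (0.0113 and 0.0127). Within the H/ACA particle at 4 h, log2 fold changes ran from −1.31 for GAR1 to 0.25 for NHP2 in i-BET858.

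Among the 6 genes of RNA polymerase I transcription, 4 fell in i-BET858 at 4 h (POLR1B, UBTF, RRN3 and TCOF1, against 16.3% of all genes) and 2 did not pass. In i-BET151 at 4 h 2 fell (against 8.43%). At 24 h 2 fell in i-BET858 and 1 in i-BET151 (against 21.3% and 16.6%). POLR1B, the second largest subunit of the enzyme, measured 116, 94.5 and 108 CPM in DMSO and 38.2, 56.9 and 56.5 CPM in i-BET858. All treated libraries lay far under DMSO, and the fall was 1.07 ± 0.18 on the log2 scale (adjusted p = 0.000874). In i-BET151 the fall was 0.75 ± 0.18 (adjusted p = 0.0144). At 24 h it was 0.51 ± 0.14 with each drug (adjusted p = 0.0143 and 0.0195). RRN3, the initiation factor that brings the polymerase to the ribosomal promoter, read 35.8, 28.5 and 33.8 CPM in DMSO at 4 h and 14.8, 23.2 and 17.6 CPM in i-BET858, a fall of 0.82 ± 0.21 (adjusted p = 0.0116). At 24 h, the DMSO libraries themselves read 19.7, 20.5 and 26.2 CPM and those in i-BET858 26.7, 18.4 and 22.6 CPM, which overlap, with a log2 fold change of 0.03. UBTF, which opens and marks ribosomal DNA, fell by 0.50 ± 0.09 in i-BET858 (adjusted p = 0.00175) and by 0.41 ± 0.09 in i-BET151 (adjusted p = 0.012) at 4 h, and had −0.15 with each at 24 h without passing.

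POLR1A, the largest subunit of the enzyme, measured 73.4, 78.3 and 105 CPM in DMSO at 4 h and 46.1, 51.2 and 69.0 CPM in i-BET858. The groups did not overlap, yet replicate 3 was high in both. The log2 fold change of −0.63 ± 0.22 missed the threshold (adjusted p = 0.0545) and passed with the replicate block (5.2e-05). At 24 h it was −0.09 in i-BET858 and 0.08 in i-BET151. TCOF1 (treacle, a nucleolar cofactor of the polymerase) fell in i-BET858 by 0.67 ± 0.17 at 4 h (adjusted p = 0.00989) and by 0.61 ± 0.20 at 24 h (adjusted p = 0.0307). The value at 24 h depended on 1 control library. DMSO read 157, 154 and 82.1 CPM against 86.5, 90.1 and 80.1 CPM in i-BET858, and without DMSO replicate 3 the fall was 0.84 (adjusted p = 8.1e-05). Of the 9 fits without 1 library, 3 kept the call. POLR1C, which RNA polymerase III shares, passed in no comparison with DMSO, and its log2 fold changes were 0.45 and 0.47 at 4 h and −0.25 and −0.52 at 24 h. With the replicate block it passed in both drugs at 4 h (adjusted p = 0.00295 and 0.00353) and in i-BET151 at 24 h (0.00516), and in i-BET151 at 4 h so did RRN3 (0.0182) and TCOF1 (0.00231).

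Small subunit factors fell in 6 of 11 genes in i-BET858 at 4 h (against 16.3% of all genes) and in 3 in i-BET151 (against 8.43%). At 24 h they fell in 5 with each drug (against 21.3% in i-BET858 and 16.6% in i-BET151). None rose at either time. LTV1, which the small subunit needs for its late assembly, had the largest fall of this role. It measured 18.7, 19.2 and 13.8 CPM in DMSO and 7.71, 5.94 and 6.36 CPM in i-BET858 at 4 h. No library overlapped, and the fall was 1.37 ± 0.19 on the log2 scale (adjusted p = 0.00024). In i-BET151 the libraries read 12.6, 12.8 and 11.4 CPM, under DMSO in all 9 pairs, and the log2 fold change of −0.49 did not pass (adjusted p = 0.0953, and 0.0248 with the replicate block). At 24 h, DMSO replicate 3 read 9.61 CPM against 17.6 and 20.0 CPM in replicates 1 and 2, and the log2 fold changes of −0.65 and −0.63 did not pass. Without that library they were −0.89 (adjusted p = 0.00351) and −0.87 (adjusted p = 0.00525).

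WDR43, UTP15 and UTP20, which belong to the small subunit processome, fell in all 4 comparisons with DMSO. WDR43 measured 161, 130 and 153 CPM in DMSO at 4 h, 54.9, 67.0 and 59.0 CPM in i-BET858 and 86.7, 83.2 and 108 CPM in i-BET151. The 3 groups did not overlap at all, in i-BET151 between the other 2. The falls were 1.30 ± 0.14 (adjusted p = 5.67e-05) and 0.68 ± 0.14 (adjusted p = 0.00763). At 24 h they were 0.74 ± 0.14 (adjusted p = 0.00132) and 0.57 ± 0.13 (adjusted p = 0.00803). UTP15 went from 34.9 ± 5.28 CPM in DMSO to 16.7 ± 1.46 in i-BET858 and 24.5 ± 1.26 in i-BET151 at 4 h (SD, n = 3), and UTP20 from 58.8 ± 8.28 CPM by −0.92 and −0.75 on the log2 scale. UTP4 and RRP12 fell at 24 h alone, by 0.49 and 0.50 in i-BET858 and by 0.55 and 0.51 in i-BET151. With the replicate block both were also lower in i-BET858 at 4 h.

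BYSL (bystin), a small subunit factor, measured 53.5, 49.9 and 51.6 CPM in DMSO at 4 h and 32.2, 37.8 and 39.4 CPM in i-BET858. These sets lie apart, and the fall was 0.50 ± 0.13 on the log2 scale (adjusted p = 0.014), which did not pass without i-BET858 replicate 1 (−0.42, adjusted p = 0.0596). In i-BET151 the log2 fold change was −0.17 (adjusted p = 0.44), and at 24 h it was −0.21 and −0.27 without passing (adjusted p = 0.175 and 0.0971). NOP14 fell in i-BET858 at 4 h alone (0.46 ± 0.15, adjusted p = 0.0351, kept in 4 of 9 fits without 1 library). RRP9 of the U3 snoRNP, IMP4 and the helicase DDX10 passed in none of the 4 comparisons, and their log2 fold changes ran from −0.43 to 0.15. Under the replicate block, DDX10 was lower in i-BET858 at 4 h (adjusted p = 0.037) and RRP9 in both drugs at 24 h (0.0197 and 0.0272), as were BYSL (0.0347) and LTV1 (0.0155) in i-BET151 at 24 h and RRP12 (0.0358) in i-BET151 at 4 h.

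Of the 12 large subunit factors, 7 fell in i-BET858 at 4 h and 8 at 24 h (against 16.3% and 21.3% of all genes). In i-BET151 4 and 7 fell (against 8.43% and 16.6%). RRS1, which helps to bring 5S RNA into the large subunit, measured 73.5, 67.2 and 61.6 CPM in DMSO at 4 h. With i-BET858 it read 20.2, 21.3 and 19.1 CPM, and in i-BET151 33.0, 33.9 and 32.2 CPM. The 3 groups were narrow and separate. RRS1 fell by 1.74 ± 0.12 on the log2 scale in i-BET858 (adjusted p = 3.11e-06), to a level 3.34-fold lower, and by 1.03 ± 0.12 in i-BET151 (adjusted p = 0.00024). At 24 h the DMSO libraries read 56.7, 61.9 and 54.5 CPM, those in i-BET858 27, 28.4 and 27.4 CPM and those in i-BET151 34.3, 32.3 and 21.9 CPM. Both drugs were still well under DMSO, by 1.07 ± 0.15 (adjusted p = 0.000286) and by 0.97 ± 0.15 (adjusted p = 0.000793), and no longer stood apart from each other.

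PPAN, the human counterpart of a yeast factor of large subunit assembly, had the largest log2 fold change and the fewest counts of the genes read here. It measured 4.42, 5.13 and 6.20 CPM in DMSO at 4 h and 1.33, 1.71 and 0.224 CPM in i-BET858, the last of these from 8 counts. PPAN fell by 2.28 ± 0.53 on the log2 scale (adjusted p = 0.00694). Without that library it fell by 1.78, and the call held in each of 9 fits without 1 library. In i-BET151 it read 2.85, 3.20 and 2.02 CPM, under DMSO in all 9 pairs, and the log2 fold change of −0.97 did not pass (adjusted p = 0.229). At 24 h the log2 fold change was −0.91 in i-BET858 (adjusted p = 0.0259, kept in 4 of 9 fits without 1 library) and −0.74 in i-BET151 (adjusted p = 0.0697).

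MRTO4, NOP16 and WDR12 had 3 of the 4 largest falls in i-BET858 at 24 h. MRTO4, which acts on the stalk region of the large subunit, read 64.1, 69.9 and 71.4 CPM in DMSO at 24 h, 32.7, 37.7 and 27.7 CPM in i-BET858 and 38.3, 37.8 and 39.9 CPM in i-BET151. The lowest DMSO library was far above all 6 treated libraries, and MRTO4 fell by 1.07 ± 0.12 (adjusted p = 5.33e-05) and by 0.82 ± 0.12 (adjusted p = 0.000432). NOP16 read 38.5, 40.1 and 40 CPM in DMSO at 24 h, 17.7, 20.1 and 19.4 CPM in i-BET858 and 20.8, 19.4 and 18.5 CPM in i-BET151. The treated libraries formed 1 narrow band under DMSO, and the falls were 1.05 ± 0.11 (adjusted p = 2.78e-05) and 1.01 ± 0.11 (adjusted p = 6.24e-05). At 4 h the falls of MRTO4 were 0.69 ± 0.14 and 0.53 ± 0.14, and those of NOP16 were 0.75 ± 0.14 and 0.55 ± 0.14. Both calls in i-BET151 at 4 h were kept in 4 of 9 fits without 1 library.

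WDR12, PES1 and BOP1 form 1 complex (PeBoW). The first 2 fell in both drugs at 24 h, and BOP1 passed in none of the 4 comparisons. WDR12 read 55.2, 55.6 and 62.7 CPM in DMSO at 24 h, 29.0, 30.2 and 24.7 CPM in i-BET858 and 34.0, 34.6 and 31.2 CPM in i-BET151. These groups did not overlap, and WDR12 fell by 1.05 ± 0.11 (adjusted p = 3.85e-05) and by 0.80 ± 0.11 (adjusted p = 0.000355). At 4 h its log2 fold change was −0.33 in i-BET858 (adjusted p = 0.193) and −0.28 in i-BET151 (adjusted p = 0.336). PES1 fell in i-BET858 by 0.51 ± 0.12 at 4 h (adjusted p = 0.00731) and by 0.42 ± 0.09 at 24 h (adjusted p = 0.00288), and in i-BET151 by 0.45 ± 0.09 at 24 h (adjusted p = 0.00259). BOP1 measured 114, 117 and 139 CPM in DMSO at 4 h and 138, 147 and 163 CPM in i-BET858, which overlap, without passing (log2 fold changes over the 4 comparisons of 0.27, 0.25, 0.27 and 0.09, with adjusted p from 0.143 to 0.653). With the replicate block it passed in the first 3 of these (adjusted p = 0.0146, 0.0382 and 0.0243).

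RRP1B, a nucleolar protein related to a yeast large subunit factor and a partner of protein phosphatase 1 (chromosome 21, 43659560 to 43696079, plus strand), was the 1 gene of the list that rose at 24 h. It read 112, 116 and 122 CPM in DMSO, 172, 158 and 189 CPM in i-BET858 and 160, 165 and 192 CPM in i-BET151. Every treated library was above every DMSO library, and the rise was 0.57 ± 0.11 on the log2 scale with each drug (adjusted p = 0.00147 and 0.00214). At 4 h it read 150, 132 and 164 CPM in DMSO and 104, 128 and 137 CPM in i-BET858, and the log2 fold change of −0.27 did not pass (adjusted p = 0.169). WDR74 fell in all 4 comparisons by 0.57 to 0.80. NIP7 fell in i-BET858 at 4 h (0.70 ± 0.12, adjusted p = 0.0013) and with both drugs at 24 h (0.90 and 0.87), and NOC2L passed in none, with log2 fold changes of −0.20 to 0.11. The replicate block added calls of lower for RRP1B in i-BET858 at 4 h (adjusted p = 0.0233), for NIP7 (0.0128) and WDR12 (0.0343) in i-BET151 at 4 h, and for NOC2L (0.0442) and PPAN (0.0462) in i-BET151 at 24 h.

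The abundant nucleolar proteins were split. NPM1 (chromosome 5, 171387116 to 171411810, plus strand) measured 1037, 948 and 881 CPM in DMSO at 4 h, 1536, 1543 and 1327 CPM in i-BET858 and 1288, 1326 and 1110 CPM in i-BET151. All treated libraries lay above DMSO, and the rises were 0.62 ± 0.10 on the log2 scale (adjusted p = 0.00097) and 0.38 ± 0.10 (adjusted p = 0.0299, a call kept in 5 of 9 fits without 1 library). At 24 h it read 926, 966 and 988 CPM in DMSO, 832, 899 and 900 CPM in i-BET858 and 861, 812 and 779 CPM in i-BET151. The groups again did not overlap but in the other direction, at −0.13 ± 0.08 on the log2 scale (adjusted p = 0.233) and −0.23 ± 0.08 (adjusted p = 0.0485, a call lost in each of the 9 fits without 1 library).

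NCL measured 1329, 1320 and 1137 CPM in DMSO at 4 h and 1813, 1921 and 1549 CPM in i-BET858, in no overlap, and rose by 0.48 ± 0.11 on the log2 scale (adjusted p = 0.00632). Under total library size this was 0.32 and did not pass. In i-BET151 the log2 fold change was 0.25 (adjusted p = 0.157, and 0.00235 with the replicate block). At 24 h, DMSO replicate 3 read 686 CPM against 1213 and 1265 CPM in the other replicates, and the log2 fold changes of −0.10 and −0.12 did not pass. DDX21, a helicase of ribosomal RNA transcription and processing, fell in all 4 comparisons, by 0.65 ± 0.15 (adjusted p = 0.00791), 0.57 ± 0.15 (adjusted p = 0.0267), 0.48 ± 0.12 (adjusted p = 0.00869) and 0.38 ± 0.12 (adjusted p = 0.0344). The 2 calls in i-BET151 were kept in 5 and in 3 of 9 fits without 1 library. NOLC1 and GNL3 (nucleostemin) passed in none, with log2 fold changes of −0.00 to 0.23 at 4 h and of −0.44 to −0.17 at 24 h. Under the replicate block, NOLC1 was higher in i-BET858 at 4 h (adjusted p = 0.0232) and GNL3 lower in both drugs at 24 h (0.000762 and 0.000779).

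**Figure D2:**
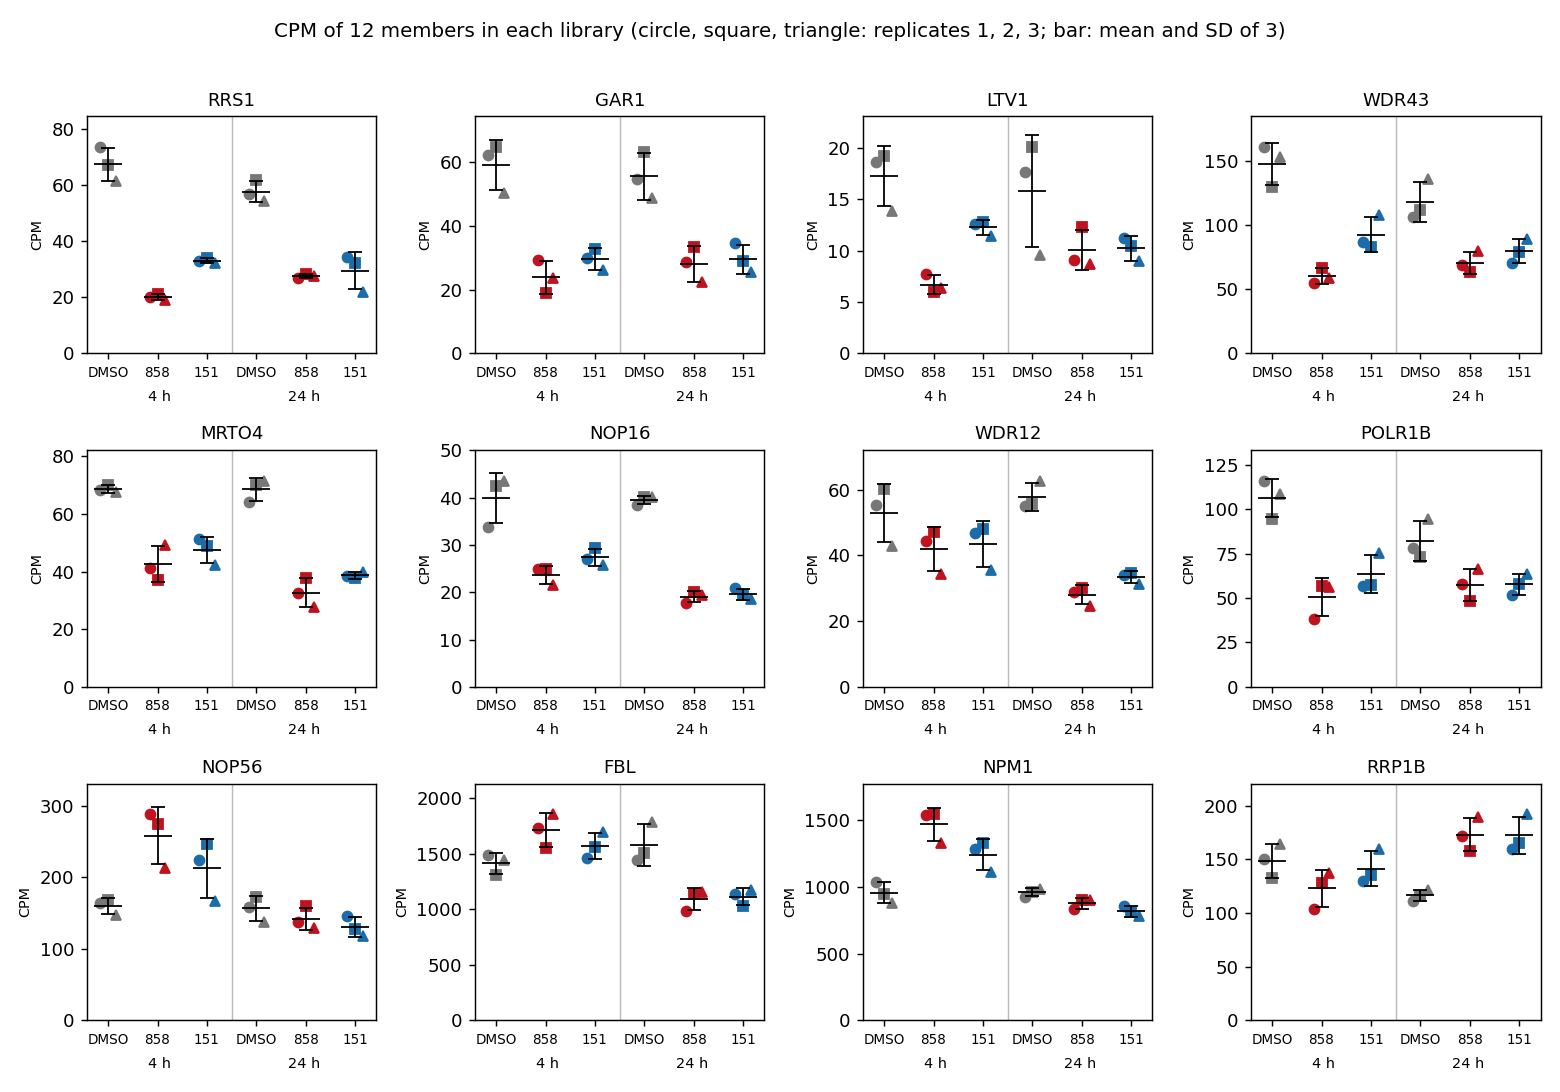
TMM-scaled CPM of 12 of the genes in each of the 18 libraries, by treatment and time, with the compounds marked by their numbers, on axes that start at 0. Points are libraries with the replicate number as their shape, and bars are the mean and SD of 3. RRS1 reads 19.1 to 21.3 CPM in i-BET858 at 4 h against 61.6 to 73.5 in DMSO, whereas RRP1B lies above DMSO at 24 h in all 6 treated libraries.

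A few genes hold most of the reads, and the summed level in i-BET858 at 4 h went another way from the typical gene. The 41 genes together had 7884 ± 186 CPM in DMSO at 4 h and 8516 ± 98.2 CPM in i-BET858 (SD, n = 3), and every treated library was above every DMSO library (7733 to 8093 against 8411 to 8606 CPM). In i-BET151 the sum was 8000 ± 217 CPM (7860 to 8249), which overlaps DMSO. Without FBL, NCL, NPM1 and NOC2L, the 4 highest per kilobase, the sum was 3772 ± 88.0 CPM in DMSO, 3056 ± 76.3 CPM in i-BET858 and 3175 ± 77.7 CPM in i-BET151, with DMSO the highest. By CPM in DMSO at 4 h, DDX21 (535), which was kept in that sum, stood above NOC2L (481). As a share of all counts with no TMM factor, the whole list took 0.828 ± 0.0173% in DMSO and 0.802 ± 0.0351% in i-BET858, so the higher sum at 4 h depended on the scaling. At 24 h both sums were lower with the drugs. The whole list had 7382 ± 244 CPM in DMSO, 5998 ± 228 in i-BET858 and 5964 ± 173 in i-BET151, and its share of counts was 0.759 ± 0.0572%, 0.580 ± 0.0334% and 0.600 ± 0.0259%. No test was made of these sums. In bulk RNA, less RNA of these genes per cell and a change in how much other RNA the cells hold cannot be told apart.

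Whether a drug's effect changed from 4 to 24 h was tested as the interaction of drug and time in a fit of all 18 libraries. For i-BET858, 10 of the 41 genes passed (24.4%, against 27.2% of all 18154 genes), 4 of them upward (against 14.6%) and 6 downward (against 12.6%), and for i-BET151, 3 passed (7.32% against 13.8%), 1 upward (against 6.99%) and 2 downward (against 6.82%). The shares for each drug as a whole are below those over all genes. The genes that passed for i-BET858 in the upward direction were RRN3 (0.89 ± 0.28, adjusted p = 0.0224), RRP1B (0.89 ± 0.17, adjusted p = 0.000952), RRS1 (0.72 ± 0.20, adjusted p = 0.0113) and WDR43 (0.60 ± 0.19, adjusted p = 0.0266). In RRS1 and WDR43 this is a fall that was smaller at 24 h than at 4 h, and in RRP1B a rise that was there at 24 h alone. Downward were the 3 box C/D proteins NOP56 (−0.79 ± 0.21, adjusted p = 0.00996), FBL (−0.76 ± 0.14, adjusted p = 0.000617) and NOP58 (−0.47 ± 0.14, adjusted p = 0.0206), with NHP2, NPM1 and WDR12. For i-BET151, FBL (−0.64 ± 0.14, adjusted p = 0.0061) and NPM1 (−0.59 ± 0.13, adjusted p = 0.00615) were lower at 24 h, and RRP1B was higher (0.66 ± 0.17, adjusted p = 0.0172).

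FBL, NOP56, NPM1, RRP1B and RRS1 kept the call for i-BET858 with each of 12 libraries left out in turn, and the other 5 did not. Without i-BET858 replicate 1 of 4 h the count was 6. With the replicate block it was 22 (10 higher and 12 lower, against 40.3% of all genes) for i-BET858 and 14 (1 higher and 13 lower, against 28.4%) for i-BET151, which are 53.7% and 34.1% of the 41 genes and lie above the shares over all genes. For i-BET151 the count was 5 without DMSO replicate 3 of 24 h or i-BET151 replicate 3 of 4 h. By the calls at each time, 15 genes were lower in i-BET858 at both times (36.6%, against 6.86% of the 16570 genes tested at both). Lower at 4 h alone were 5 (UBTF, RRN3, NOP14, BYSL and LTV1, 12.2% against 8.42%), and lower at 24 h alone were 4 (NOP58, RRP12, UTP4 and WDR12, 9.76% against 14.1%). FBL was higher at 4 h and lower at 24 h. Of these 9 genes called at 1 time alone, RRN3, NOP58 and WDR12 passed the test of the change itself, and with the replicate block UBTF (adjusted p = 0.00933) and LTV1 (0.0125) did too. With that block, RRP12 (adjusted p = 0.0127), UTP4 (0.0265) and WDR12 (0.00986) were also lower at 4 h, and LTV1 (0.00915) at 24 h.

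**Figure D3:**
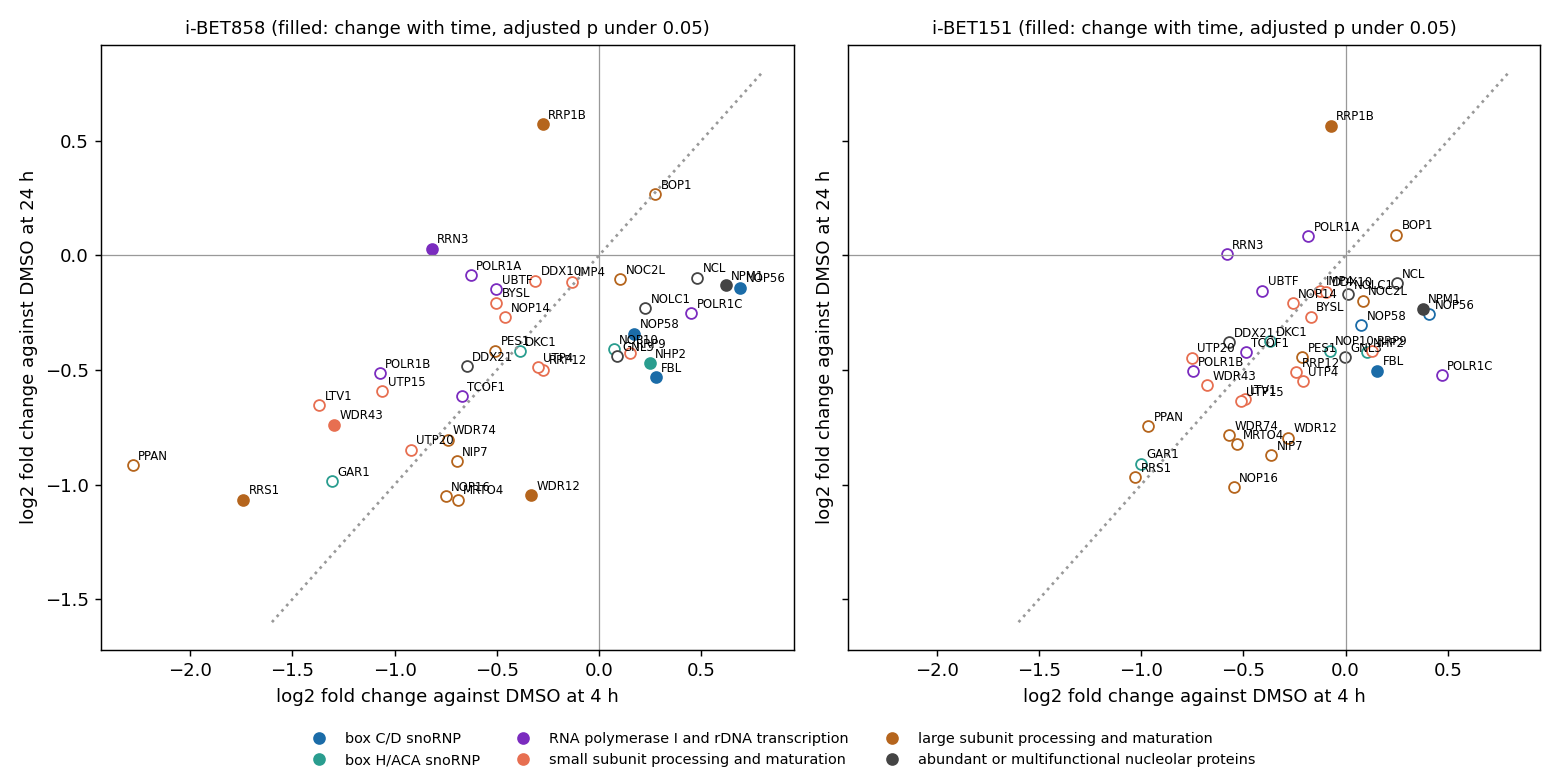
Log2 fold change against DMSO at 24 h (vertical) and at 4 h (horizontal) for 40 genes (NOP2 left out) in i-BET858 (left) and i-BET151 (right), coloured by role, with equal effects on the dotted line. Filled points passed the test of a change with time, 10 genes in i-BET858 and 3 in i-BET151. RRP1B stands alone at the top with both drugs, and the box C/D genes lie at the right, positive at 4 h and negative at 24 h.

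DMSO cells themselves were compared between the 2 times, since the effects are read against them. None of the 41 genes passed in edgeR (7 of 18154 genes did, 0.0386%), while 12 had an unadjusted p under 0.05 (against 9.17% of all genes). DESeq2 called 2, edgeR without the filter on low counts 1 and the replicate block 1 (DDX21, against 0.749% of all genes). The block was set within each time, so that last fit compared the fitted levels of replicate 1 at the 2 times and not the group means. DDX21 read 544, 454 and 608 CPM at 4 h and 345, 362 and 381 CPM at 24 h. All libraries at 24 h lay under those at 4 h, and the log2 fold change was −0.64 ± 0.14 (adjusted p = 0.116, and 0.012 with the block, for the replicate 1 level). RRN3 had −0.64 ± 0.20 (adjusted p = 0.25), also in all 9 pairs. The median over the 41 genes was −0.20 against −0.01 over all genes.

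The compounds were compared directly at the same dose, 1 pair at 2 times. At 4 h, 29 of the 41 genes (70.7%) were lower in i-BET858 than in i-BET151, against 47.2% of all genes, with a median difference of −0.16 on the log2 scale against 0.02. A single gene passed, RRS1 (0.971% of all genes did), in i-BET858 lower by 0.71 ± 0.12 (95% interval −0.98 to −0.45, adjusted p = 0.029). That call was lost in 8 of 9 fits without 1 library, where the difference stayed between −0.75 and −0.67, and in a fit of the 2 groups alone. LTV1 (−0.88, interval −1.29 to −0.47, adjusted p = 0.0541) and WDR43 (−0.62, interval −0.93 to −0.31, adjusted p = 0.0666) were lower in all 9 pairs and missed the threshold. With the replicate block, 8 genes passed (3 higher and 5 lower, against 9.63% of all genes), among them LTV1 (adjusted p = 0.00307), WDR43 (0.0045) and, in the upward direction, NPM1 (0.0162), NCL (0.0142) and NOP56 (0.0446). Of the 11 genes called against DMSO at 4 h in i-BET858 and not in i-BET151, LTV1 passed the direct test also in DESeq2 (adjusted p = 0.0015), with no filter (0.0185), with at least 10 counts (0.0494), with total library size (0.037), with all 18 libraries (0.0497) and with replicates 1 and 2 alone (0.0315).

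At 24 h the median difference was −0.02 and none of the 41 genes passed in edgeR (0.21% of all genes did), 2 had an unadjusted p under 0.05 (UTP20 and WDR12, against 11.4% of all genes), and neither the replicate block nor DESeq2 called any. The differences ran from −0.40 (UTP20, interval −0.70 to −0.11) to 0.27 (POLR1C, interval −0.15 to 0.69), NOP2 and PPAN included. For 40 of 41 genes the 95% interval lay within a 2-fold difference either way, and the median interval reached 0.30 to either side.

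**Figure D4:**
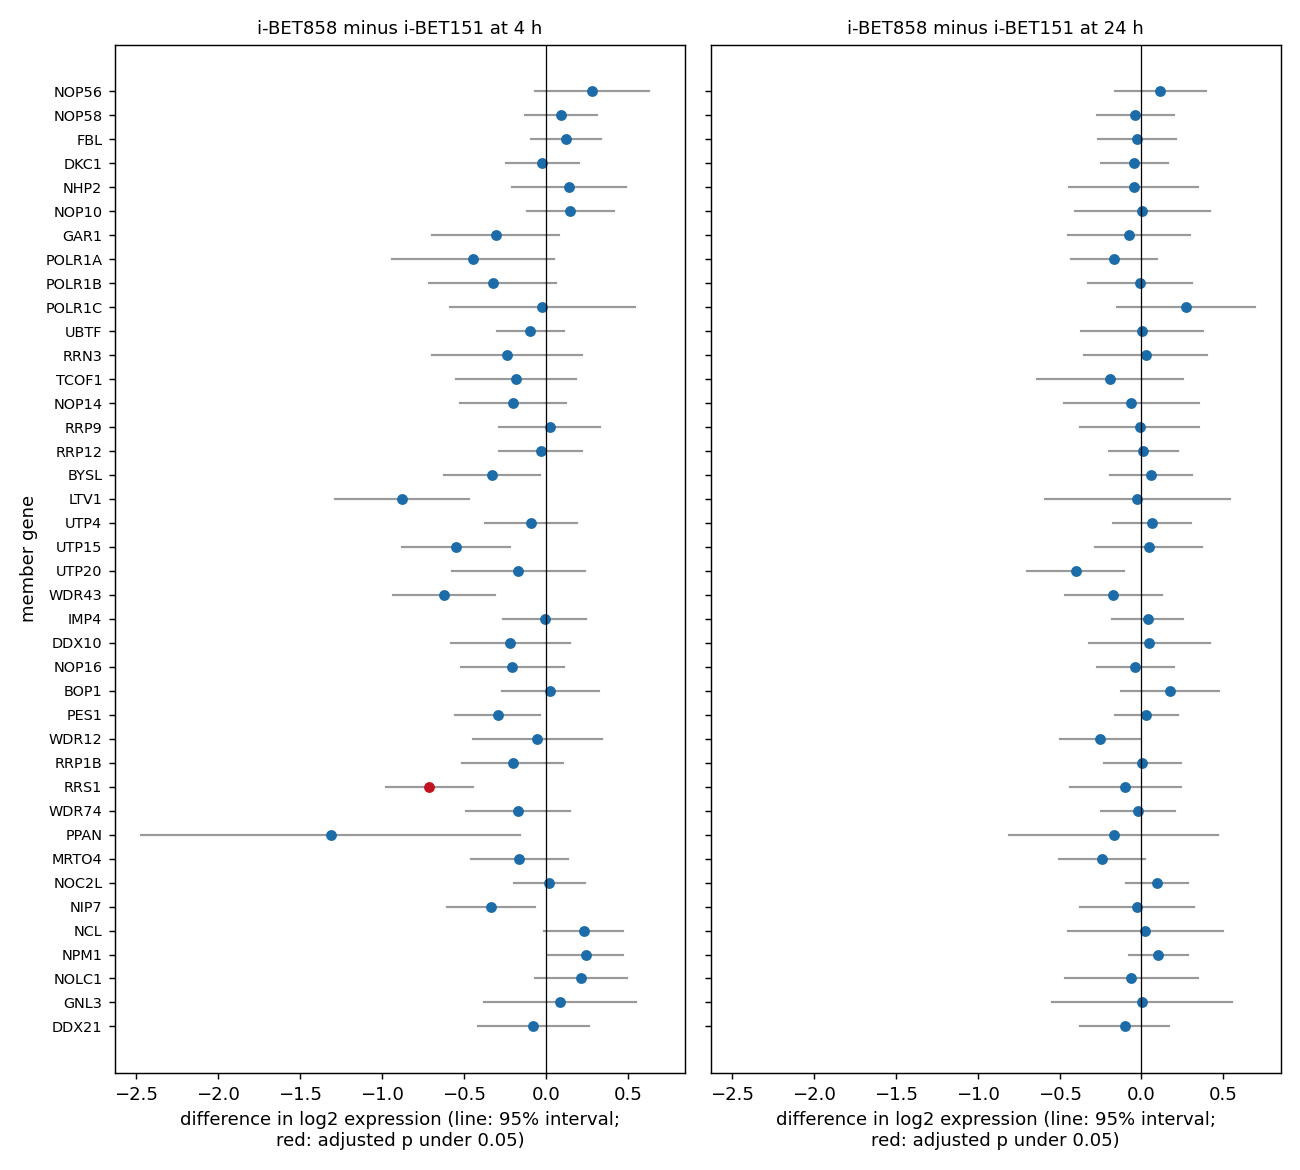
Difference in log2 expression between i-BET858 and i-BET151 for 40 genes (NOP2 left out) at 4 h (left) and 24 h (right), with 95% intervals as lines, where values under 0 are lower in i-BET858. RRS1 at 4 h (red, −0.71) is the one gene with an adjusted p under 0.05, and at 24 h the points lie close to 0.

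MYC, whose binding motif is the E-box, is no member of the list. It read 28.0, 23.5 and 29.2 CPM in DMSO at 4 h, 28.0, 28.6 and 32.9 CPM in i-BET858 and 19.1, 23.6 and 19.7 CPM in i-BET151. These overlap with DMSO, at 0.15 ± 0.15 on the log2 scale (adjusted p = 0.498) and −0.37 ± 0.15 (adjusted p = 0.119, and 0.0426 with the replicate block). At 24 h it read 23.7, 24.0 and 39.4 CPM in DMSO, 15.5, 14.1 and 19.7 CPM in i-BET858 and 17.6, 17.6 and 25.8 CPM in i-BET151, with replicate 3 the highest of each group. It fell by 0.82 ± 0.23 in i-BET858 (adjusted p = 0.0157), and had −0.51 ± 0.23 in i-BET151 (adjusted p = 0.115, and 0.00235 with the replicate block). Without DMSO replicate 3 the values were −0.52 (adjusted p = 0.0686) and −0.22 (adjusted p = 0.463). The call in i-BET858 was also lost without its replicate 1 (adjusted p = 0.0562) or 2 (0.0607), and MYC passed in i-BET151 without its replicate 3 (−0.72, adjusted p = 0.0415). Any part of MYC in the changes of the list was not tested.

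The rest of the pathway was read from 144 further genes in 6 lists by function, of which 143 were tested at 4 h. With i-BET858 at 4 h, 70 were lower and 5 higher (median log2 fold change −0.43), against 16.3% and 14.5% of all genes. In i-BET151 28 were lower and 1 higher (−0.23), against 8.43% and 7.81%. At 24 h it was 54 lower and 14 higher in i-BET858 (−0.22), against 21.3% and 20.5% of all genes, and 42 lower and 12 higher in i-BET151 (−0.22), against 16.6% and 17.2%. The other small subunit factors had 22 of 46 lower and 1 higher in i-BET858 at 4 h, led by WDR36 (−1.41, adjusted p = 0.000166) and KRR1 (−1.38, adjusted p = 5.14e-05), both processome proteins, while BUD23, a methyltransferase of 18S RNA, rose (0.56, adjusted p = 0.002). The other large subunit factors had 22 of 45 lower and 2 higher, with BRIX1 lowest (−1.94, adjusted p = 7.99e-05), a partner in early large subunit assembly. DDX24 (0.44, adjusted p = 0.0239) and SBDS (0.58, adjusted p = 0.0375), which matures the large subunit in the cytoplasm, rose.

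RNA polymerase III makes 5S RNA and transfer RNA. Of its 18 genes, 10 were lower and 1 higher in i-BET858 at 4 h (against 16.3% and 14.5% of all genes). At 24 h 5 were lower and 4 higher, when the shares are close to those over all genes (21.3% and 20.5%). POLR3D was lower at both times (−1.34, adjusted p = 1.41e-05, and −0.92, adjusted p = 2.8e-05), and POLR3G, the alternative subunit of growing and stem cells, rose at 4 h (1.25, adjusted p = 0.000722). In the test of a change of the i-BET858 effect with time, 10 of the 18 passed upward and 2 downward, against 14.6% and 12.6% of all genes, with BDP1 (1.57, adjusted p = 0.00507) and POLR3A (1.23, adjusted p = 6.95e-05) among the former and POLR3G (−1.27, adjusted p = 0.00573) among the latter. Of the other RNA polymerase I genes, 5 of 11 were lower in i-BET858 at 4 h (against 16.3% of all genes), among them TTF1 (−1.05, adjusted p = 0.00224) and TAF1B (−0.84, adjusted p = 0.00136). None was lower in i-BET151 at 4 h (against 8.43%). The nuclear exosome, which trims precursor RNA, had 7 of 14 lower in i-BET858 at each time (against 16.3% of all genes at 4 h and 21.3% at 24 h). It had 1 higher at 4 h and 2 at 24 h (against 14.5% and 20.5%). EXOSC10 was at −1.05 (adjusted p = 0.00102) and −0.86 (adjusted p = 9.73e-05). In snoRNP assembly 4 of 9 were lower in i-BET858 at 4 h (against 16.3% of all genes), led by NUFIP1 (−1.11, adjusted p = 0.000574). The median log2 fold change of that list was 0.06, so its typical gene did not fall. In i-BET151 at 4 h none was lower (against 8.43%). At 24 h 3 were lower in i-BET858 and 2 in i-BET151 (against 21.3% and 16.6%).

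**Figure D5:**
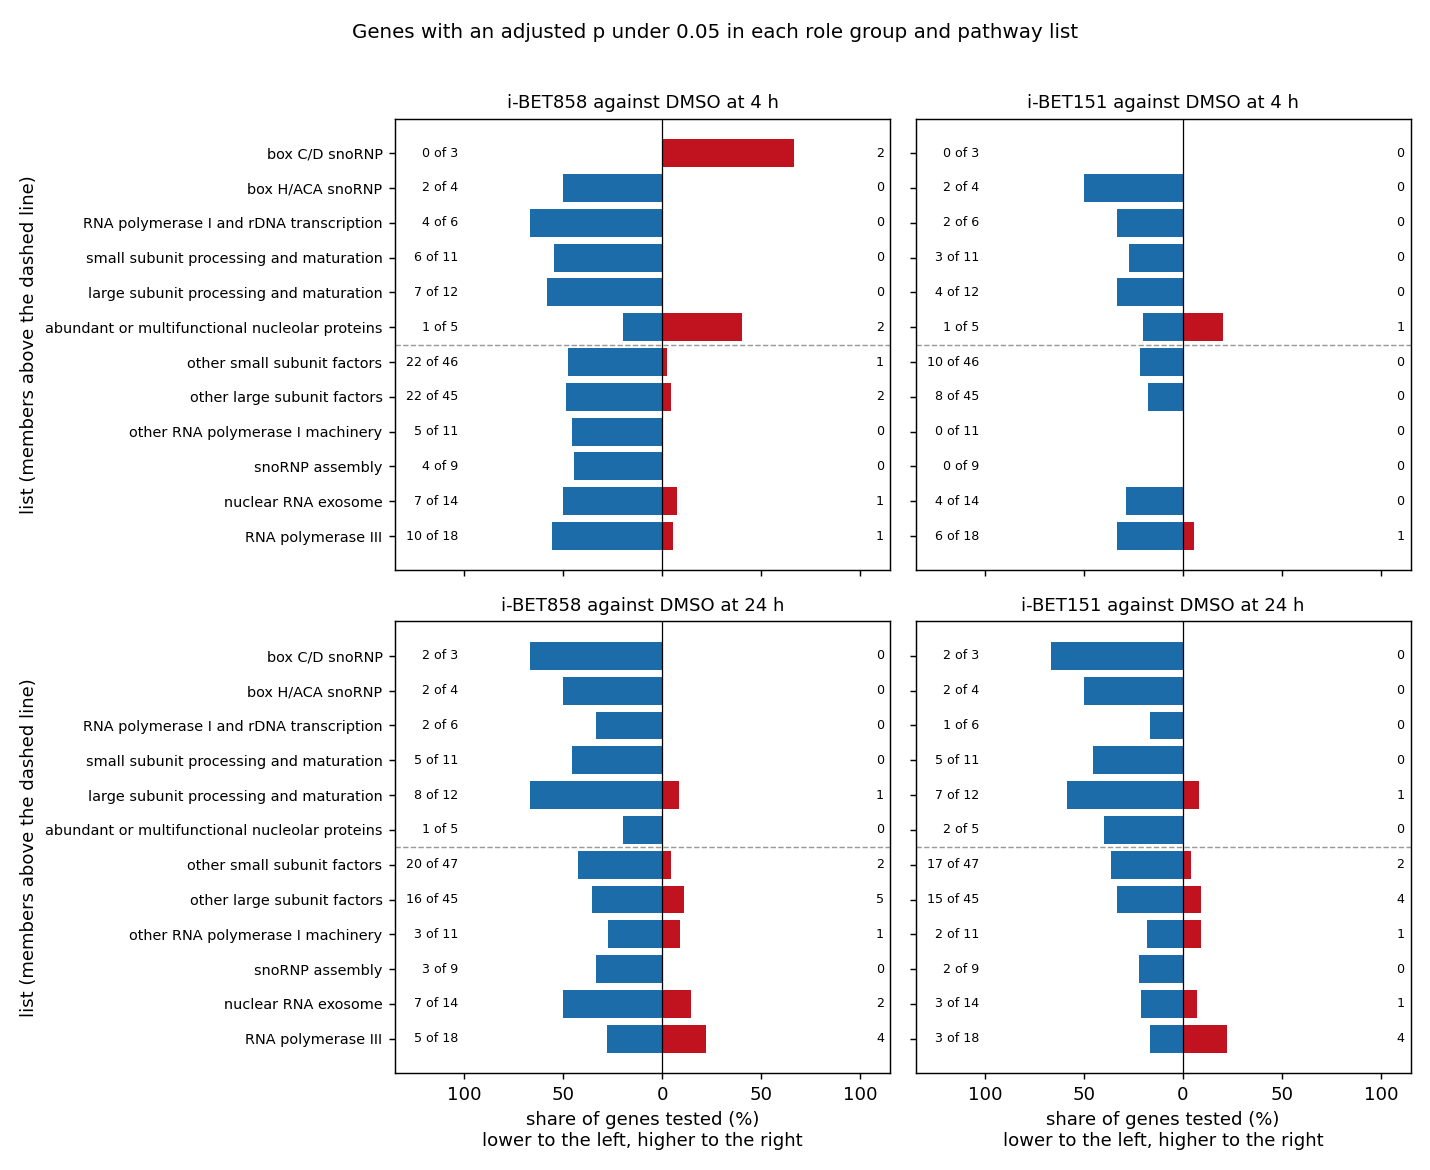
Share of the tested genes with an adjusted p under 0.05 in each role of the 41 genes (above the dashed line) and in 6 further lists of the pathway (below it), lower than DMSO to the left in blue and higher to the right in red, with the number lower of those tested at the left and the number higher at the right. With i-BET858 at 4 h the lower share is 4 of 6 genes for RNA polymerase I and 10 of 18 for RNA polymerase III, against 16.3% of all genes. The box C/D particle has 2 of 3 higher, against 14.5%.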

How the data were processed

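RNA of 18 OVCAR-3 libraries was measured. The deposited values are raw counts per gene, which the authors took from STAR alignments to GRCh38. The annotation, the strand setting and software versions are not given in the sources used here. Identifiers were matched to GENCODE 44 (58472 of 58825, 99.4%). The 41 genes, their roles, the further lists and the rule for genes given in full (the 4 largest falls and rises with i-BET858 at each time, 1 well-known gene per role, and the smallest adjusted p of the other comparisons) were chosen with earlier results of these data known.

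Counts were fitted per time with edgeR 4.0.16 in R 4.3.3 (TMM, its filter on low counts, quasi-likelihood test, 3 groups per fit), or over all 18 libraries for changes with time, with Benjamini-Hochberg adjustment over all genes and a threshold of 0.05. Intervals are 95% and come from the fit. The fits were tested on simulated data. A count of 0 allows up to 3 counts, or 0.0654 to 0.108 CPM by library, which covers counting error only. Replicates of a group differed by 4.19 to 66.1 times counting variance (chi-square per degree of freedom), so none were taken as duplicates. Deviations of libraries from their group mean were correlated across genes. Between equal replicate numbers the correlations were 0.268 to 0.574 at 4 h (median 0.491) and 0.205 to 0.525 at 24 h (median 0.404), all above 0.1. Between unequal numbers they were −0.498 to 0.306 at 4 h (median −0.311) and −0.511 to 0.516 at 24 h (median −0.378), so the ranges overlap. The numbers were taken to pair the libraries only in the fits with the replicate block. The main edgeR fits held the groups alone and did not use this pairing, so their calls are unpaired. In each comparison of a drug with DMSO, the block gave more calls than the main fit, in the list and over all genes. Promoter windows came from RefSeq.

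The alternatives were DESeq2 1.42.0, DESeq2 size factors, total library size, no filter, at least 10 counts in every library, only the 2 groups compared, all 18 libraries, the replicate block, replicates 1 and 2 without 3, each library left out, and folds of 1.5 and 2.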

Additional observations from a re-analysis of the deposited data

Results flagged for a closer look

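The effect of a drug against DMSO differed between 4 and 24 h by the test of the interaction (edgeR, all 18 libraries) in 10 genes for i-BET858 and in 3 for i-BET151, and no other kind of result stood out by the criteria applied. The box C/D genes with i-BET858 changed by −0.79 (NOP56), −0.76 (FBL) and −0.47 (NOP58) on the log2 scale. Of these, FBL passed as higher than DMSO at 4 h and as lower at 24 h, NOP56 as higher at 4 h alone and NOP58 as lower at 24 h alone. NPM1, called higher at 4 h alone, changed by −0.71, NHP2, called at neither time, by −0.67, and WDR12, called lower at 24 h alone, by −0.67. With the replicate block, NHP2 was called higher at 4 h and lower at 24 h, and WDR12 was called lower at 4 h too. RRP1B, called higher at 24 h alone, changed by 0.89. RRN3 changed by 0.89, RRS1 by 0.72 and WDR43 by 0.60, each through a fall that was smaller or gone at 24 h. The DMSO means were themselves lower at 24 h than at 4 h in RRN3 (22.2 against 32.7 CPM) and RRP1B (116 against 149). The same held in RRS1 (57.7 against 67.4 CPM) and WDR43 (118 against 148). In i-BET858, RRN3 read 22.6 CPM at 24 h against 18.5 at 4 h. With i-BET151, FBL changed by −0.64, NPM1 by −0.59 and RRP1B by 0.66. The share of the 41 genes that passed was no larger than that over all genes (24.4% against 27.2%, and 7.32% against 13.8%), whereas with the replicate block it was larger (53.7% against 40.3%, and 34.1% against 28.4%).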

How the results depend on the processing

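Over 57 fold changes of named genes and 1032 alternative values, 943 kept their direction and side of the threshold, 68 no longer passed, 19 newly passed and 2 changed sign. Both changes of sign were uncalled values with i-BET151 at 24 h without its replicate 3, POLR1A at −0.00758 (−0.00758 to 0.156 over all libraries left out in turn) and BOP1 at −0.0275 (−0.0275 to 0.197). The number of the 41 genes called changed as follows. Requiring a 2-fold change gave 7 and 4 with i-BET858 at 4 and 24 h (17.1% and 9.76%, against 14.1% and 18.8% of all genes). With i-BET151 it gave 1 and 1 (2.44% each, against 7.1% and 13.7%). For the direct comparison at 4 h it gave 0, against 0.209% of all genes. For the changes with time of i-BET858 and i-BET151 it also gave 0, against 15.1% and 6.7%. A 1.5-fold change gave 17 with i-BET858 at 4 h (41.5%, against 24.5% of all genes), above the share of all genes. It gave 12 with i-BET858 at 24 h (29.3% against 31.3%). With i-BET151 it gave 5 and 8 at 4 and 24 h (12.2% against 13.2%, and 19.5% against 24.4%). These last 3 counts are each below the share of all genes. The replicate block gave 23 with i-BET151 at 4 h, 8 for the direct comparison at 4 h, and 22 and 14 for the changes with time of i-BET858 and i-BET151. It gave 1 for DMSO over time, where it compared the replicate 1 levels and not the group means. Replicates 1 and 2 alone gave 34 with i-BET151 at 24 h (82.9% against 54.2%), 2 for the direct comparison at 4 h (4.88% against 2.29%), and 18 and 11 for the changes with time (43.9% against 40.6%, and 26.8% against 26.3%). For the direct comparison at 4 h, DESeq2 gave 4, total library size 3, no filter 3, at least 10 counts 2, the 2 groups alone 0 and all 18 libraries 4. For the change of i-BET151 with time, DESeq2 gave 7, no filter 5 and at least 10 counts 7. For DMSO over time, DESeq2 gave 2 and no filter 1. The cause of these changes was not tested. The counts from DESeq2, total library size, the filters, the 2 groups alone and all 18 libraries carry no share over all genes. They are therefore not read as a result about the list.

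With 1 library left out, the count was 21 to 25 with i-BET858 at 4 h, 18 to 23 at 24 h, 4 to 15 with i-BET151 at 4 h and 15 to 20 at 24 h, 0 to 1 for the direct comparison at 4 h and 0 at 24 h, 6 to 12 and 3 to 5 for the changes with time, and 0 for DMSO over time. These fits have fewer libraries, and the 2 libraries left in a group were assumed to vary like the other groups. With 3 libraries per group, median intervals of the direct comparison reached 0.31 on the log2 scale to either side at 4 h and 0.30 at 24 h. PPAN and NOP2 are limited by counts.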
